A study of Mus musculus with 8 samples.

Results

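The proteasome is the barrel-shaped protease that degrades ubiquitin-tagged proteins, and its subunit genes were taken by symbol, as Psm followed by a letter from a to g and a number, with a mean of at least 1 TPM over all libraries. The pattern found 48 of the 55487 genes listed, and 47 of these were among the 11796 genes tested. The member nearest to the limit from inside was Psmb9, with a mean of 5.61 TPM, and the gene left out was Psmb11, the subunit of the thymus, with a mean of 0.01 TPM. RNA was sequenced from J774A.1, a mouse macrophage line of tumour origin, after 24 h of treatment, with 4 libraries from cells given 1 μg/mL LPS and 4 from cells given the same LPS plus 1 mM UDCA. LPS comes from the outer membrane of Gram-negative bacteria and stimulates macrophages through a Toll-like receptor, while UDCA (ursodeoxycholic acid) is a bile acid formed by gut microbes. Both groups received LPS, no library without LPS was analysed here, and all libraries came from a single cell line, so each comparison asks what UDCA changed in cells that were already stimulated. The labels do not say that the libraries came from separate cultures, so p-values measure the spread between these libraries, which may be technical.

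The core particle is a stack of α and β rings that holds the proteolytic sites inside, and the regulatory particle caps the stack, binds ubiquitin chains, removes them and threads the protein into the core with a ring of ATPases. In immune cells exposed to interferon or microbial products the catalytic subunits Psmb5, Psmb6 and Psmb7 can be replaced by Psmb8, Psmb9 and Psmb10, which gives the immunoproteasome and changes the peptides that are cut for MHC class I molecules. When proteasome activity falls short, the transcription factor encoded by Nfe2l1 raises the genes of the core and the regulatory particle together, through sites in their promoters that belong to the antioxidant response element type.

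The promoters of 5 members are shown because Psmb8, Psmb9 and Psmb10 had the lowest fold changes of the 47 genes and Psmc6 and Psmd11 had the highest of the constitutive core and regulatory particle. The sequences are from RefSeq on GRCm38.p6, run 5′ to 3′ on the strand of the gene and cover 250 bases before to 50 bases after the start that RefSeq gives. For Psmb8 and Psmb9 this start lies inside the longer gene of the GENCODE annotation used for positions, and both windows lie wholly within that gene, so bases upstream of the GENCODE start were not searched. Capitals mark matches, on either strand, to the core of the antioxidant response element (TGACNNNGC or TGAGNNNGC), the CCAAT box (CCAAT), a pattern of the interferon-stimulated response element type (GAAANNGAA) and a pattern of the NF-kB type (GGGANTTTC). None of these patterns contains another.
Psmb8, chr17:34197945-34198244, plus strand: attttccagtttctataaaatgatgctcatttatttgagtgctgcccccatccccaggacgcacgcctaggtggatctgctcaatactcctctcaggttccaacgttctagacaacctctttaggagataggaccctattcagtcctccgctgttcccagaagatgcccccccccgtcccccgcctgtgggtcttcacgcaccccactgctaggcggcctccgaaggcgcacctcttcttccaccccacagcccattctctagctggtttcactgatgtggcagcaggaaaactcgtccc
Psmb9, chr17:34187281-34187580, minus strand: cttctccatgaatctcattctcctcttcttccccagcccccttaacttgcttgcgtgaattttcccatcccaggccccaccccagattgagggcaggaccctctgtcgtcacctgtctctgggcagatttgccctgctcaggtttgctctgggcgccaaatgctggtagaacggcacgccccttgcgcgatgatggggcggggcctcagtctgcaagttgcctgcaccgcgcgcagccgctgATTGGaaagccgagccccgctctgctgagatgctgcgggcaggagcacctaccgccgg
Psmb10, chr8:105938343-105938642, minus strand: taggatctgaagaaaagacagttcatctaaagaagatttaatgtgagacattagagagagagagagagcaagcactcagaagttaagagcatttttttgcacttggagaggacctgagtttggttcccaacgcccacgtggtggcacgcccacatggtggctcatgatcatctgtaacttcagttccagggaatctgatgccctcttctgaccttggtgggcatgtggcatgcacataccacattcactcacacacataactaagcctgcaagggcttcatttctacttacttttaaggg
Psmc6, chr14:45329574-45329873, plus strand: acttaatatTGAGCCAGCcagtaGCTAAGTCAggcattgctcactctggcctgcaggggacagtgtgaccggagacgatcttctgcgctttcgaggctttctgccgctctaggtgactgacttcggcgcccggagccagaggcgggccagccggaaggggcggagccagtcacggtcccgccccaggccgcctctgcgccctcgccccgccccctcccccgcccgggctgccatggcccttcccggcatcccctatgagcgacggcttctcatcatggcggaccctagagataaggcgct
Psmd11, chr11:80428365-80428664, plus strand: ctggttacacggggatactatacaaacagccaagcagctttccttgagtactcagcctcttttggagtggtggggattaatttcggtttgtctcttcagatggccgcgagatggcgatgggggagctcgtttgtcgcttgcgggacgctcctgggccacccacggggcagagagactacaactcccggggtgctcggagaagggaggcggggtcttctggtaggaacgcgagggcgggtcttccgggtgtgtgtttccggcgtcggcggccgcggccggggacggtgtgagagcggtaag

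In the windows of Psmb8, Psmb10 and Psmd11 there were 0 matches to the 4 patterns, and that of Psmb9 held 1 CCAAT box, 8 bases before the RefSeq start. Psmc6 had 2 matches to the antioxidant response element core, 241 and 227 bases before the start. The RefSeq table held promoters for 39 of the 47 members, 42 promoters in all, and none for Psma8, Psmb1, Psmb2, Psmb7, Psmc3, Psmd3, Psmd7 and Psmg2. The antioxidant response element core was in 40.5% of the 42 member promoters and in 48.1% of the 27 promoters of the constitutive core and regulatory particle, against 27.8% of all 32851 promoters in the table and 31.4% of the promoters of genes tested. Within those constitutive genes the 12 with a match had a median log2 fold change of 0.49 and the 13 without one had 0.51. The CCAAT box was in 31% of member promoters against 37.4% of all, GAAANNGAA in 16.7% against 8.56%, and GGGANTTTC in 2.38% against 1.11%. In that order, these were 13, 7 and 1 of the 42 member promoters. For promoters of genes tested the shares were 38.5%, 7.18% and 0.921%. A match is a run of letters and not evidence of binding.

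TPM values summed to 973190 to 977485 in the LPS libraries and to 958918 to 962737 in the LPS + UDCA libraries, without overlap. Per library, 11412 to 11730 genes reached 1 TPM. TPM keeps no read numbers, so the depth is unknown and the errors given are the spread between libraries. Of 7 macrophage markers, none was below 20.4 TPM in any library. With UDCA 2 of them were higher (Adgre1 and Fcgr1) and 5 were lower at an adjusted p under 0.05 in limma. Among all genes tested, 40.2% were higher and 32.3% lower by this rule. Past 2-fold, 2 markers were higher and 4 lower, and Itgam had the lowest log2 fold change (-2.91). Of 12 markers of epithelium, fibroblasts, T cells, B cells, endothelium and neutrophils, 6 were at 0 in every library, and the sum of all 12 was 1.01 to 1.26 TPM with LPS and 0.09 to 0.57 TPM with UDCA. Whether the shift in macrophage markers has a part in the results was not tested.

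Of the 47 proteasome genes, 33 were higher with UDCA (70.2%) and 8 lower (17.0%) at an adjusted p under 0.05 in limma, with 6 not called, while 40.2% of all genes tested were higher and 32.3% lower by this rule. When a fold change of at least 2 was also asked for, 2 proteasome genes were higher, Psmc6 and Psme4, against 8.71% of all genes, and 3 were lower, Psmb8, Psmb9 and Psmb10, against 8.44% of all genes. Every LPS + UDCA library lay above every LPS library for 32 members (68.1%), where 37.0% of all genes did so, and below for 7 members (14.9%), where 29.9% did so. The median log2 fold change was 0.36 over the 47 members and 0.08 over all genes tested. So most of the higher members moved by less than 2-fold, and the largest falls were in the immunoproteasome. In bulk RNA, fewer cells that express a gene and less RNA per cell cannot be told apart, and TPM gives each gene as a share of its library.

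**Figure D1:**
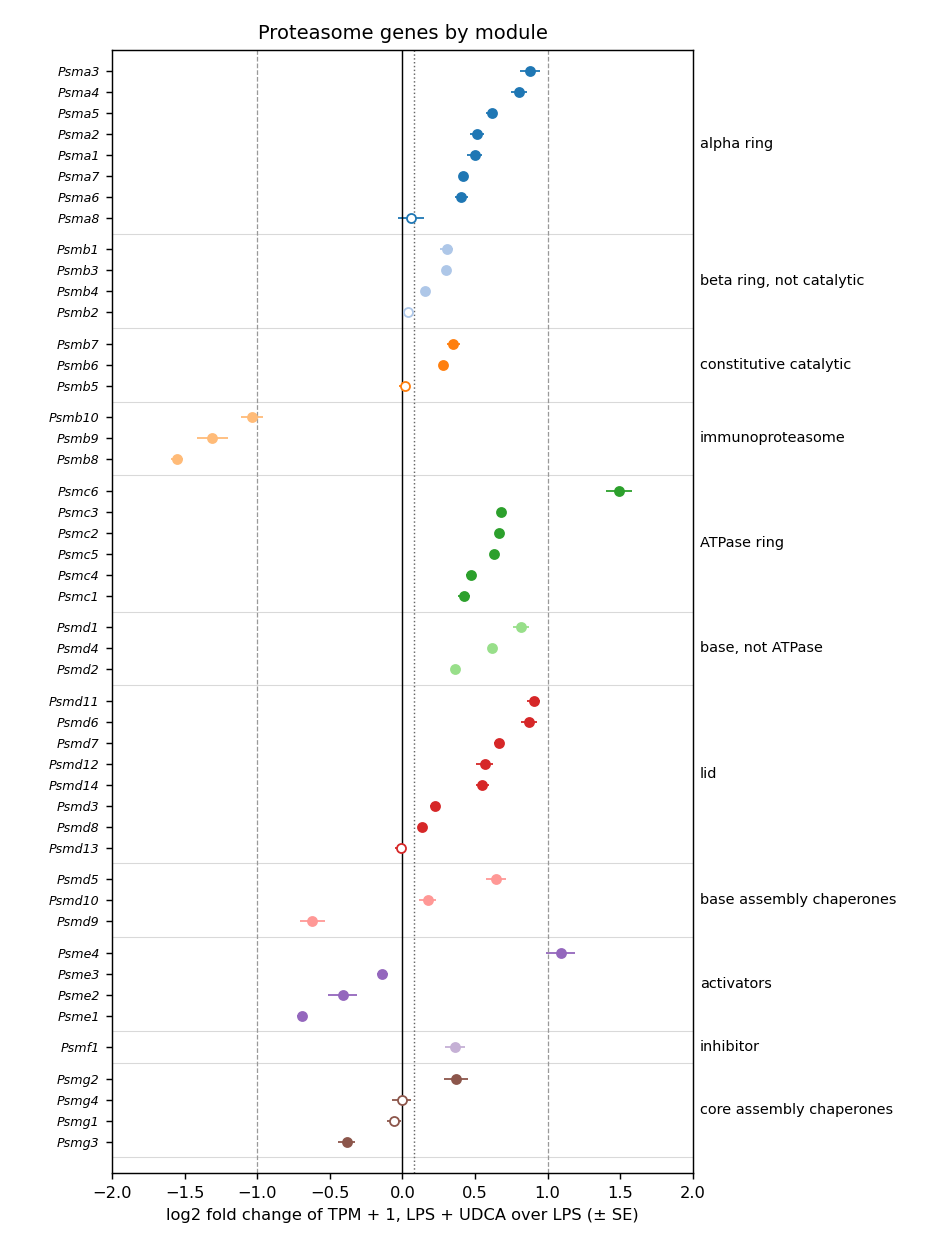
Log2 fold change of TPM + 1 (x axis, LPS + UDCA over LPS) with its SE for each of the 47 proteasome genes (y axis), grouped by module, with filled points at an adjusted p under 0.05 in limma, dashed lines at 2-fold and a dotted line at the median of all genes tested. The 3 immunoproteasome subunits lie beyond the left 2-fold line, Psmc6 and Psme4 lie beyond the right one, and the other genes of the core and regulatory particle lie between -0.01 (Psmd13) and 0.90 (Psmd11).

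The catalytic subunits of the immunoproteasome fell together. In LPS libraries Psmb8, which replaces Psmb5 at the chymotrypsin-like site, was at 86.8, 85.1, 84.2 and 83.2 TPM, and in LPS + UDCA libraries it was at 28.3, 29.9, 27.1 and 27.7 TPM. The groups were far apart and each was tight, and Psmb8 fell by 1.55 on the log2 scale (SE 0.042, adjusted p = 5.6e-09). Psmb8 lies at chr17:34197721-34201454 on the plus strand (GRCm38, GENCODE M21), in the MHC class II region, with Psmb9 9956 bases away and the peptide transporter genes Tap1 and Tap2 495 and 2072 bases away.

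Psmb9, the replacement for the caspase-like subunit Psmb6, had 7.45, 8.64, 10.01 and 7.61 TPM with LPS and 3.18, 2.54, 2.62 and 2.80 TPM with UDCA. It was the lowest of the 47 members in LPS + UDCA, the groups did not overlap, and it fell by 1.31 (SE 0.11, adjusted p = 4.0e-06). Psmb9 (chr17:34181987-34187764, minus strand) overlaps Tap1 on the opposite strand by 212 bases, and how the counting treated strand is not given in the sources used here. Psmb10, the replacement for the trypsin-like subunit Psmb7, had 34.9, 37, 39.7 and 37.8 TPM with LPS and 15.3, 19.1, 17.5 and 18.9 TPM with UDCA. Again every LPS + UDCA library was below every LPS library, and Psmb10 (chr8:105935735-105938444, minus strand) fell by 1.04 (SE 0.075, adjusted p = 2.0e-06). Without LPS + UDCA replicate 1 the change of Psmb10 was -0.97, just under 2-fold on the scale of TPM + 1. Psmb10 was still called by adjusted p alone.

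None of the 3 constitutive catalytic subunits was called lower, and 2 were higher. Psmb5 was at 375, 414, 402 and 404 TPM with LPS and at 418, 409, 391 and 392 TPM with UDCA. These ranges overlapped, and its log2 fold change of 0.014 was not called (SE 0.039, adjusted p = 0.75) and was negative with median-of-ratios scaling, at -0.09. With quantile normalization the change of Psmb5 was 0.12 and was called higher in limma (adjusted p = 0.025). Of the 31-base words in Psmb5 transcripts, 71.7% are also in other genes, mostly in Gm3375, which was listed at 105 to 109 TPM with LPS and at 98.5 to 118 TPM with UDCA, so reads of the pair may have been split. Psmb6 was at 479, 488, 463 and 469 TPM with LPS and at 577, 580.2, 584 and 566 TPM with UDCA. Its groups were apart by much more than their spread, and it rose by 0.28 (SE 0.027, adjusted p = 1.4e-05). Psmb7 had 284, 311, 319 and 318 TPM with LPS and 400.2, 374, 390.4 and 405 TPM with UDCA. It rose by 0.35 without overlap between the groups (SE 0.045, adjusted p = 8.1e-05).

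**Figure D2:**
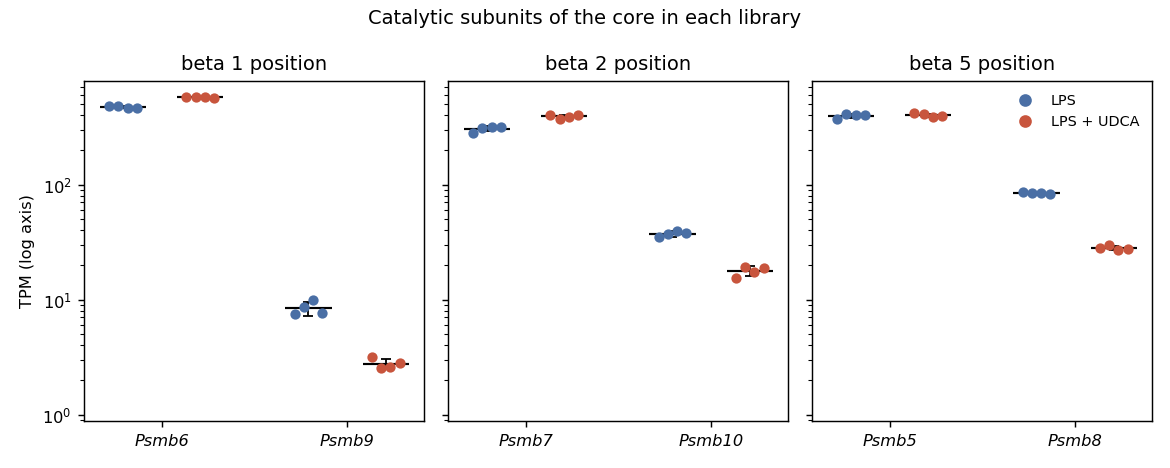
TPM of the 6 catalytic subunits in each library (y axis, log scale), with the constitutive subunit at the left and its immunoproteasome counterpart at the right of each panel, blue for LPS and red for LPS + UDCA, and black lines for the mean and SD (n = 4). The red points lie below the blue ones for Psmb9, Psmb10 and Psmb8, above them for Psmb6 and Psmb7, and among them for Psmb5.

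The balance between both kinds of subunit was compared as a ratio within each library, which does not depend on how libraries are scaled. Psmb8 TPM was 23.2%, 20.6%, 21.0% and 20.6% of Psmb5 TPM in the LPS libraries and 6.78%, 7.32%, 6.91% and 7.08% in the LPS + UDCA libraries. Every ratio with UDCA was thus below every ratio with LPS, and the difference of the log2 ratios was -1.60 (SE 0.048). For Psmb9 over Psmb6 the ratios were 1.56%, 1.77%, 2.16% and 1.62% with LPS and 0.551%, 0.438%, 0.449% and 0.494% with UDCA, a difference of -1.87 (SE 0.13). For Psmb10 over Psmb7 they were 12.3%, 11.9%, 12.5% and 11.9% with LPS and 3.82%, 5.10%, 4.48% and 4.67% with UDCA, a difference of -1.43 (SE 0.089). In each of the 3 pairs the immunoproteasome subunit lost ground to the subunit it replaces. A 2-sided exact permutation test over the 70 arrangements of 4 and 4 libraries gave p = 0.029, the smallest p that this design allows. After Benjamini-Hochberg adjustment over the 3 ratios the permutation p was 0.029. The separation of the groups already fixes this p, so it adds nothing to the ratios themselves. With Gm3375 added to Psmb5, an alternative chosen after seeing the data, the first difference was again -1.60.

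Summed over the 6 catalytic subunits, the immunoproteasome share of TPM was 10.2%, 9.73%, 10.2% and 9.75% in the LPS libraries, a mean of 9.96% ± 0.26 (SD, n = 4). In the LPS + UDCA libraries it was 3.25%, 3.64%, 3.34% and 3.50%, a mean of 3.43% ± 0.18 (SD, n = 4). The difference was -6.53 percentage points (UDCA minus LPS), many times the SD of either group. The sum of the 3 immunoproteasome subunits went from 130.6 ± 2.397 to 48.8 ± 2.22 TPM, and that of the 3 constitutive ones from 1181 ± 31.6 to 1372 ± 15.3 TPM. By TPM, a unit per length of transcript, constitutive transcripts were the larger part of the catalytic ones in every library of both groups.

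**Figure D3:**
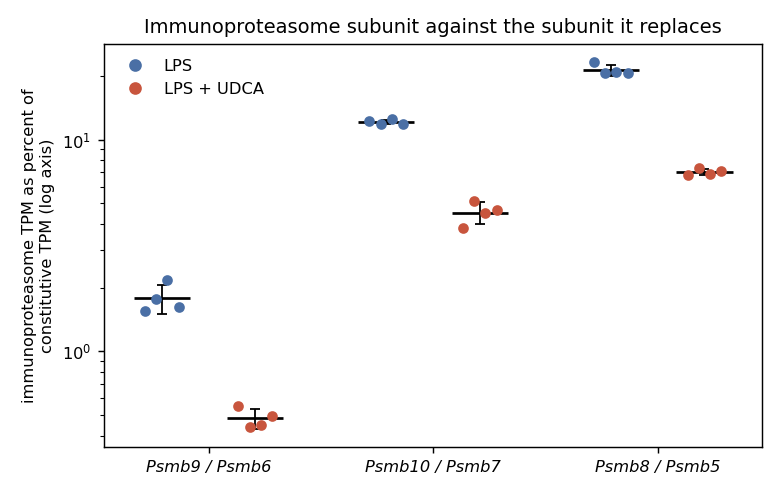
TPM of each immunoproteasome subunit as a percent of the TPM of the constitutive subunit it replaces (y axis, log scale) in each library, blue for LPS and red for LPS + UDCA, with black lines for the mean and SD (n = 4). In each of the 3 pairs the 4 red points lie below the 4 blue points.

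The α ring, which closes the entrance of the core, was higher with UDCA in 7 of its 8 genes. Beside this count and those of the other modules, 40.2% of all genes tested were higher and 32.3% lower by the same rule. Psma3, the α7 subunit, had 89.8, 81.8, 91.4 and 87.1 TPM with LPS and 168, 148, 151 and 182 TPM with UDCA. Its lowest LPS + UDCA library was well above its highest LPS library, and it rose by 0.88 (SE 0.068, adjusted p = 3.1e-06), the most in the ring. Psma4, the α3 subunit, rose by 0.80, from 250.3 ± 14.6 to 437 ± 27.4 TPM (SD, n = 4). The other rises were 0.62 for Psma5, 0.51 for Psma2, 0.498 for Psma1, 0.42 for Psma7 and 0.40 for Psma6. Psma7 was the most abundant gene of the ring, at 459.9 TPM with LPS and 615 TPM with UDCA. Psma8, the germ cell counterpart of Psma7, had 21.9, 24.9, 25.4 and 30.5 TPM with LPS and 27.3, 25.7, 26.6 and 26.8 TPM with UDCA. The groups overlapped and Psma8 was not called (log2 fold change 0.058, SE 0.088, adjusted p = 0.57), with a change of -0.05 under median-of-ratios scaling.

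Of the 4 β subunits without a catalytic site, 3 were higher and none was lower. Psmb1 was at 163, 182, 181 and 184 TPM with LPS and at 221, 218, 216 and 221 TPM with UDCA. LPS replicate 1 was lower than the other LPS libraries, and the groups were apart with a rise of 0.30 (SE 0.043, adjusted p = 0.00016). Psmb3 rose by 0.30, from 499 ± 11.7 to 616 ± 11 TPM (SD, n = 4), and Psmb4 by 0.16 (adjusted p = 0.00056), a call that was lost with median-of-ratios scaling (adjusted p = 0.31). Psmb2 had 311, 319, 321 and 312 TPM with LPS and 327, 324, 327 and 317 TPM with UDCA. These ranges overlapped, and its change of 0.035 (SE 0.027, adjusted p = 0.26) was not called and was -0.07 with median-of-ratios scaling. With quantile normalization the change of Psmb2 was 0.11 and was called higher in limma (adjusted p = 0.0062). Taking the 14 genes of the constitutive core together, that is without Psma8 and the immunoproteasome, 12 were higher, 0 were lower, also at an unadjusted p under 0.05 in limma, and the median log2 fold change was 0.38. Their TPM summed to 4434 ± 108 with LPS and 5666 ± 87.4 with UDCA (SD, n = 4).

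All 6 genes of the ATPase ring, which unfolds substrates and opens the core, were higher with UDCA. Psmc6 (chr14:45329788-45349705, plus strand) was at 48.97, 43.6, 40.7 and 44.8 TPM with LPS and at 116, 115, 131 and 149 TPM with UDCA. The lowest LPS + UDCA library had more than 2 times the TPM of the highest LPS library, and the rise of 1.49 (SE 0.089, adjusted p = 5.9e-07) was the largest of the 47 members and the only one of the regulatory particle past 2-fold. Psmc6 was also the least abundant gene of the ring in the LPS libraries, with 44.5 TPM against 162 to 266 TPM for the other 5. Psmc3 rose by 0.68, Psmc2 by 0.66, Psmc5 by 0.63 and Psmc4 by 0.47. At the other end, Psmc1 had 267, 268, 256 and 273 TPM with LPS and 344, 339.9, 362 and 385 TPM with UDCA. It too was higher in every LPS + UDCA library, by 0.42 (SE 0.044, adjusted p = 2.0e-05).

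The 3 base subunits taken by symbol that are not ATPases hold substrates and ubiquitin, and all 3 were higher. Psmd1, a scaffold of the base, was at 73.8, 69.2, 69.8 and 76.4 TPM with LPS and at 119.8, 122, 133 and 138 TPM with UDCA. The groups did not overlap and Psmd1 rose by 0.82 (SE 0.056, adjusted p = 1.5e-06). Psmd4, a receptor for ubiquitin chains, rose by 0.62, from 382 ± 5.90 to 587 ± 12.9 TPM (SD, n = 4). Psmd2, the other large scaffold, had 254, 246, 249 and 249 TPM with LPS and 314, 314, 327 and 327 TPM with UDCA. Its rise was 0.36 (SE 0.029, adjusted p = 3.6e-06), and 31.6% of its 31-base words also occur in other genes.

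In the lid, which carries the deubiquitinase that strips ubiquitin from substrates, 7 of the 8 genes taken by symbol were higher. Psmd11, a lid scaffold that touches the core, had 144, 149, 144 and 156 TPM with LPS and 268, 267, 295 and 282 TPM with UDCA. It rose by 0.90 with the groups far apart (SE 0.044, adjusted p = 1.7e-07), followed by Psmd6 with 0.87, Psmd7 with 0.66 and Psmd12 with 0.57. The deubiquitinase itself, Psmd14, went from 121 ± 5.62 to 178 ± 7.56 TPM (SD, n = 4), a rise of 0.55. Psmd3 rose by 0.22 and Psmd8 by 0.13, and the call of Psmd8 was lost with median-of-ratios scaling (adjusted p = 0.6). Psmd13 was at 142, 133, 128 and 133 TPM with LPS and at 135, 129.6, 131 and 136 TPM with UDCA. The groups overlapped and its change of -0.012 (SE 0.039, adjusted p = 0.78) was not called, while it was 0.07 with quantile normalization and -0.12 with median-of-ratios scaling, where it was called (adjusted p = 0.0091).

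Over the 17 genes of the regulatory particle taken by symbol, 16 were higher, 0 were lower, also at an unadjusted p under 0.05 in limma, and the median log2 fold change was 0.62. Subunits whose symbols do not match the pattern are not in this count. Their TPM summed to 3072 ± 34.6 with LPS and 4409 ± 120.2 with UDCA (SD, n = 4). Core and regulatory particle together held 31 genes taken by symbol, of which 28 were higher (90.3%) at an adjusted p under 0.05, with every LPS + UDCA library above every LPS library in 28. Over all genes tested, 40.2% were called higher and 37.0% had every LPS + UDCA library above every LPS library. The 3 not called were Psmb5, Psmb2 and Psmd13. Although these genes make one machine, their TPM was far from equal, from 44.5 (Psmc6) to 526 (Psmb4) with LPS and from 113 (Psma2) to 616 (Psmb3) with UDCA. The SD of log2 TPM over the 31 genes was 0.96 with LPS and 0.78 with UDCA. Across these genes the log2 fold change and the log2 TPM in LPS had a Pearson's r of -0.66 and a Spearman's rho of -0.61, which is given as a description, since genes are not independent and the LPS level enters both measures. Among LPS + UDCA libraries, replicate 4 was the highest in 19 of the 31 genes and replicate 2 the lowest in 18, and among LPS libraries replicate 1 was the lowest and replicate 4 the highest in 13 each.

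**Figure D4:**
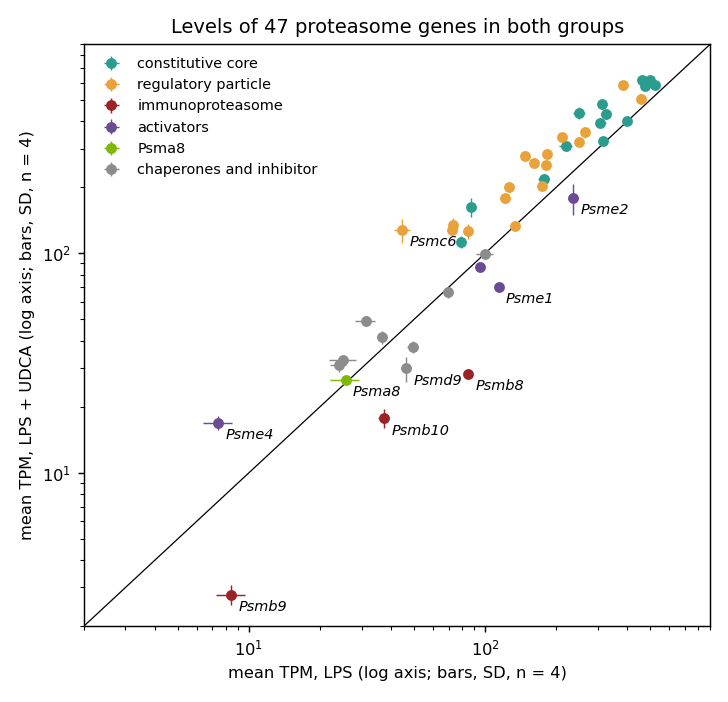
Mean TPM of each of the 47 proteasome genes in LPS (x axis) and LPS + UDCA libraries (y axis), both on log scales, with bars for the SD (n = 4), colours for the parts of the complex and a line where both are equal. Genes of the constitutive core and regulatory particle lie on, near or above the line, Psmb8, Psmb9 and Psmb10 lie well below it, and Psme4 and Psmc6 lie farthest above it.

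The activators, which can bind the core in place of the regulatory particle, did not move as a group, with 1 higher and 3 lower. Over all genes tested the shares were 40.2% higher and 32.3% lower. Psme1, an interferon-inducible subunit of the activator called PA28, was at 113, 114, 115 and 116 TPM with LPS and at 67.7, 72.4, 72.9 and 68.5 TPM with UDCA. Both groups were tight and apart, and Psme1 (chr14:55578123-55581529, plus strand) fell by 0.69 (SE 0.037, adjusted p = 3.0e-07). Its partner Psme2, 5911 bases away on the opposite strand, had 249, 236, 239 and 220.1 TPM with LPS and 221, 173, 162 and 157 TPM with UDCA. LPS + UDCA replicate 1 lay above the lowest LPS library, so the groups overlapped, and the fall of Psme2 was 0.41 (SE 0.099, adjusted p = 0.0043), or 0.52 without that library. Psme3, which forms a nuclear activator, went from 95.1 ± 2.93 to 86.2 ± 2.80 TPM (SD, n = 4) and fell by 0.14 (SE 0.039, adjusted p = 0.0097), a call that was lost with quantile normalization (adjusted p = 0.13).

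Psme4, a large nuclear activator known as PA200, went the other way, with 8.32, 7.79, 5.90 and 7.64 TPM in LPS libraries and 16.5, 16.1, 16.1 and 18.6 TPM in LPS + UDCA libraries. Every LPS + UDCA library was above every LPS library, and Psme4 (chr11:30771726-30880361, plus strand) rose by 1.09 (SE 0.0997, adjusted p = 9.3e-06). On the scale of TPM + 1 this was past 2-fold, whereas the rise was 0.997 without LPS replicate 3 and 0.99 with median-of-ratios scaling. Psmf1, a core inhibitor that is also implicated in assembly, was at 25.9, 23.1, 25.1 and 21.8 TPM with LPS and at 31.5, 34.1, 29.1 and 29.8 TPM with UDCA. The groups were apart and it rose by 0.36 (SE 0.071, adjusted p = 0.0013).

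The assembly chaperones are not part of the finished particle, and they moved in both directions. Of the 3 that help to assemble the base, Psmd5 had 28.4, 31.9, 29.4 and 35.2 TPM with LPS and 50.4, 46.5, 48.1 and 52.1 TPM with UDCA. It rose by 0.65 without overlap (SE 0.071, adjusted p = 3.1e-05). Psmd9 had 44.5, 49.03, 46.6 and 44.8 TPM with LPS and 34.5, 30.8, 25.1 and 29.2 TPM with UDCA. In contrast to Psmd5 it was lower in every LPS + UDCA library, and it fell by 0.62 (SE 0.087, adjusted p = 0.00016). Psmd10, also called gankyrin, was higher by 0.18 with overlapping groups (SE 0.059, adjusted p = 0.023), and this call was lost with median-of-ratios scaling (adjusted p = 0.32), where the change was 0.07, and without any of 5 single libraries (adjusted p from 0.052 to 0.063). Of the 4 chaperones of the core, Psmg2 was at 22.6, 24.4, 23.7 and 29.7 TPM with LPS and at 33.1, 32.7, 31 and 33.2 TPM with UDCA. It rose by 0.37 (SE 0.0803, adjusted p = 0.0025), with LPS replicate 4 close to the LPS + UDCA range. Psmg3 was at 50.5, 52.2, 48.1 and 46.3 TPM with LPS and at 38.2, 37.8, 34.4 and 39.7 TPM with UDCA. Here the groups were apart in the other direction, a fall of 0.39 (SE 0.057, adjusted p = 0.00023). Psmg1 and Psmg4 were not called, with log2 fold changes of -0.06 (adjusted p = 0.28) and -0.0066 (adjusted p = 0.93), and with quantile normalization that of Psmg4 was 0.08. With median-of-ratios scaling the change of Psmg1 was -0.17 and was called lower in limma (adjusted p = 0.02).

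Of the 47 members, 38 share under 10% of their 31-base words with other genes and 6 share at least 20%. These were Psmb5, Psma5 (58.7%), Psme2 (33.5%), Psmc1 (32.2%), Psmd2 and Psmb3 (21.7%), so their TPM could hold or lack reads of near-identical copies. For Psma5, Psmc1, Psmd2, Psme2 and Psmb3, the copies that were looked up and found were each listed at 1.72 TPM or less in every library. Not every copy was covered. Gm8394 and AC114990.1, which share the most words with Psma5 and Psmb3, were not among them. Psma2, Psma3, Psmb7, Psmb9, Psmc3, Psmd1, Psmd13 and Psme1 overlap another tested gene in the annotation. Reads in the overlaps cannot be assigned with certainty, and whether the counting used strand is not known. For Psma2, Psmb7, Psmd1 and Psmd13 an overlapping gene is on the same strand, so strand would not separate those reads.

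Genes that act with the proteasome were counted in 4 lists, in the same fit. Beside the counts of each list, 40.2% of all genes tested were higher and 32.3% lower at an adjusted p under 0.05 in limma. When a fold change of at least 2 was also asked for, 7 genes of the lists were higher and 0 lower. The shares of all genes tested were then 8.71% and 8.44%. With median-of-ratios scaling, 3 genes of the lists were higher past 2-fold. Of 11 further subunits and partners tested, 7 were higher, 1 was lower and 3 were not called. Zfand5, which binds the regulatory particle and stimulates degradation, had 32.4, 29.7, 35.5 and 31.8 TPM with LPS and 103, 91.3, 95.9 and 135 TPM with UDCA. It rose by 1.67 (SE 0.11, adjusted p = 1.4e-06). Ecpas, an adaptor that binds the core and the regulatory particle, went from 16.1 ± 1.52 to 36.1 ± 3.70 TPM (SD, n = 4), a rise of 1.12 (adjusted p = 3.5e-06). The lowest of the list was Ube3c, a ubiquitin ligase on the proteasome, which fell by 0.15 (adjusted p = 0.030). The chaperone Pomp, which completes the maturation of the core, had a log2 fold change of -0.09 and was not called (adjusted p = 0.29).

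Of 5 genes that control proteasome transcription, 4 were higher and 1 was not called. Nfe2l1 had 152, 149.8, 147 and 135 TPM with LPS and 308, 329.6, 315 and 302 TPM with UDCA. The groups were far apart, with a rise of 1.10 (SE 0.045, adjusted p = 6.2e-08). Nfe2l2, which encodes NRF2 and acts on the same type of promoter site, went from 20.8 ± 1.38 to 43.6 ± 3.13 TPM (SD, n = 4), a rise of 1.04 (adjusted p = 9.8e-07). Ngly1, whose product removes sugars from the NFE2L1 protein, rose by 0.76 (adjusted p = 0.00012). Ddi2, the protease that cleaves the same protein to release it, had the lowest change, -0.07, and was not called (adjusted p = 0.45). Transcript levels do not show how much NFE2L1 or NRF2 protein was active.

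Of 12 genes of ubiquitin and its shuttles, 9 were higher, 1 was lower and 2 were not called. Ubqln2, which carries ubiquitinated proteins to the proteasome, had 6.27, 5.3, 4.39 and 5.68 TPM with LPS and 13.6, 13.8, 13.9 and 14.9 TPM with UDCA. It rose by 1.24 with no overlap (SE 0.094, adjusted p = 2.7e-06), and Nploc4, a cofactor of the unfoldase Vcp, rose by 1.06 (adjusted p = 1.1e-07). Uba1, the enzyme that activates ubiquitin, was the one that fell, by 0.44, from 221 ± 6.03 to 162 ± 6.03 TPM (SD, n = 4, adjusted p = 5.1e-06).

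Of 8 genes of peptide supply for MHC class I molecules and their control, 2 were higher, 4 were lower and 2 were not called. Over all genes tested the shares were 40.2% higher and 32.3% lower, and with so few genes the counts are a description only. Tap1, the transporter subunit that shares its start region with Psmb9, had 17.6, 21.4, 17.3 and 18.03 TPM with LPS and 25.3, 23.2, 18.4 and 20.7 TPM with UDCA. Its groups overlapped and it was not called (log2 fold change 0.22, SE 0.104, adjusted p = 0.081), while Psmb9 on the other strand fell by 1.31. The printed Psmb9 window covers the first 28 bases of the Tap1 gene in the GENCODE annotation. B2m, the light chain of class I molecules, had the lowest change of the list and fell by 0.36, from 520.2 ± 15.9 to 406 ± 12.5 TPM (SD, n = 4, adjusted p = 1.3e-05). Irf1, a transcription factor that acts on interferon-responsive promoters, rose by 1.05, from 5.81 ± 0.40 to 13.1 ± 0.33 TPM (SD, n = 4, adjusted p = 6.7e-07).

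**Figure D5:**
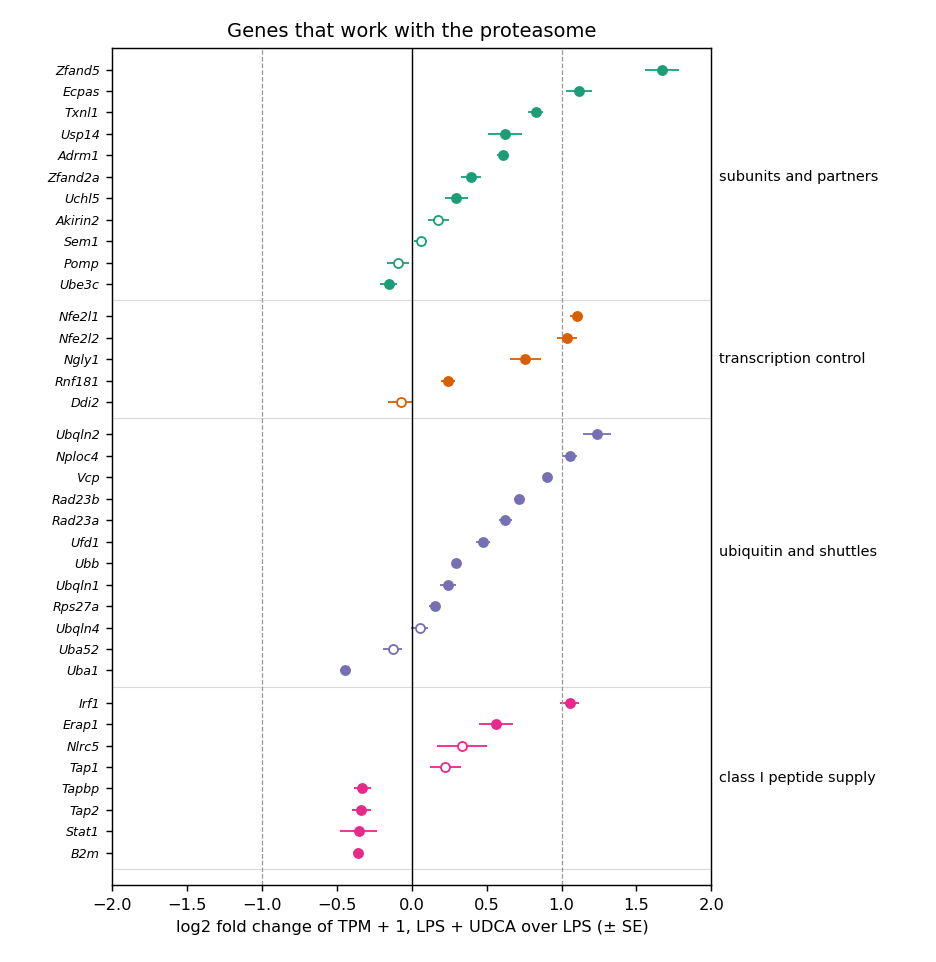
Log2 fold change of TPM + 1 (x axis, LPS + UDCA over LPS) with its SE for genes that act with the proteasome (y axis) in 4 lists, with filled points at an adjusted p under 0.05 in limma and dashed lines at 2-fold. Zfand5, Ecpas, Nfe2l1, Nfe2l2, Ubqln2, Nploc4 and Irf1 lie beyond the right line, and no gene lies beyond the left one.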

How the data were processed

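The authors deposited 1 table of TPM per gene and library, with values kept to 2 decimals, for 4 LPS and 4 LPS + UDCA libraries of J774A.1 cells prepared with an Illumina TruSeq RNA kit. The submitters' processing notes name Bowtie 0.12.2 and the builds mm10 and GRCm38, and the counting program is not given in the sources used here. The unit was taken as TPM from the column sums, which alone do not establish it. As TPM keeps no depth, counting error could not be given.

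Genes whose mean over the 8 libraries reached 1 TPM (11796) entered a limma 3.58.1 fit on log2(TPM + 1) (lmFit, eBayes with trend, R 4.3.3) with Benjamini-Hochberg adjustment over all of them. Fold changes on this scale understate the change of low genes. Genes were called at an adjusted p under 0.05, with or without a fold change of at least 2. Ratios within libraries were compared by an exact permutation test over all arrangements of the libraries. The members and the gene lists were chosen with earlier results of these data known. Shown in full were the 6 catalytic subunits, the highest and the lowest fold change of each other module and genes past both thresholds, and for the lists of related genes those past both thresholds and the highest and lowest. One gene of the related lists is not reported here. Pomp, Ngly1 and Tap1 were chosen after their values were seen. Positions and shared 31-base words are from GENCODE M21 on GRCm38, which holds 55141 of the 55487 identifiers. The fit was tested on simulated data in which few genes changed. Here 40.2% of genes were called higher and 32.3% lower, so the simulation does not check calls in such a setting. Alternatives covered scaling, pseudocount, filter, variance model, fold minimum, a replicate block and leaving out each library. No pair of libraries (of 28) was identical. Tables and figures were made with Python 3.11.15, pandas 2.3.3 and matplotlib 3.10.9.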

Additional observations from a re-analysis of the deposited data

Results flagged for a closer look

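In groups of 4, a library was taken as apart when its gap to the nearest other library, over the whole range of the group, passed Dixon's 95% critical value. Of the 102 groups examined over the 47 members, the 3 ratios and the share, 7 passed, where chance alone would give about 5.1. LPS replicate 1 was the lowest for Psma6, at 301.1 TPM against 331 to 333 in the others, and for Psmb1, at 163 TPM against 181 to 184. It also had the highest log2 ratio of Psmb8 to Psmb5, -2.11 against -2.28 to -2.25. LPS replicate 4 was the highest for Psmd10, at 38.8 TPM against 35.4 to 35.9. LPS + UDCA replicate 4 was the highest for Psma2, at 124 TPM against 109 to 111, and for Psme4, at 18.65 TPM against 16.05 to 16.47, and the lowest for Psmb4, at 575 TPM against 591 to 593. Leaving out the library in question kept the direction and the call of each of the 6 genes and the direction of the ratio.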

How the results depend on the processing

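Of the 47 members, 37 had the same direction and call in all 17 alternatives (8 of them leaving out a library). Scaling moved the median log2 fold change of all genes from 0.08 to -0.02 with median-of-ratios scaling and to 0.05 with quantile normalization. Under median-of-ratios scaling, quantile normalization and centring on the all-gene median (chosen after seeing the data), the module medians were 0.40, 0.57 and 0.42 for the α ring, 0.12, 0.34 and 0.15 for the β ring without catalytic sites, 0.17, 0.39 and 0.20 for the constitutive catalytic subunits, -1.40, -1.40 and -1.39 for the immunoproteasome, 0.54, 0.73 and 0.57 for the ATPases, 0.51, 0.71 and 0.54 for the other base subunits, 0.45, 0.63 and 0.48 for the lid, -0.14, 0.0351 and -0.11 for the core chaperones, 0.27, 0.49 and 0.30 for the constitutive core and 0.51, 0.70 and 0.54 for the regulatory particle. Median-of-ratios scaling gave 0.0694 for the base chaperones and -0.38 for the activators. The immunoproteasome median was -1.56 and -1.59 with pseudocounts of 0.1 and 0.01. Median-of-ratios scaling left 1 proteasome gene and 3 related genes higher past 2-fold, where the main fit gave 2 and 7. Over all genes tested the same count went from 1028 to 810. A minimum of 1.5-fold gave 2574 higher and 2076 lower genes in all, 14 and 5 proteasome genes and 14 higher related genes.

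Sign changes occurred only in members without a call, namely Psmb5 (-0.0943), Psma8 (-0.0466) and Psmb2 (-0.0737) with median-of-ratios scaling, Psmg4 (0.0791) and Psmd13 (0.0746) with quantile normalization, and on leaving out a library Psmb5 (-0.0151 to 0.0326), Psma8 (-0.0124 to 0.14), Psmg4 (-0.0684 to 0.0209) and Psmd13 (-0.0347 to 0.0152). Leaving out a library gave 1 to 2 proteasome genes higher and 2 to 3 lower past 2-fold, and medians of 0.20 to 0.24 for the β ring without catalytic sites and -1.36 to -1.23 for the immunoproteasome. The cause was not tested. No label says that a replicate number marks a shared batch, and the deviations of same-numbered libraries correlated at -0.035 to 0.15, within the -0.14 to 0.16 of different numbers, so the numbers were not taken as pairs, although 5 of 8 libraries correlated best with their own number. With the replicate block, the log2 ratio differences stayed at -1.60, -1.87 and -1.43 with an exact paired p of 0.125, the smallest that 4 pairs allow, 32 proteasome genes were higher and 8 lower at an adjusted p under 0.05, and Psmd10 (adjusted p = 0.06) was the member no longer called. Leaving out each library in turn, the ratio differences were -1.62 to -1.56, -1.94 to -1.78 and -1.49 to -1.35. Each had an exact permutation p of 0.0286, the smallest possible with a library left out, which the separation of the groups already fixes.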
